A study of Mus musculus with 14 samples.

Results

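Iron is held inside cells in ferritin, carried between cells on transferrin, and moved across membranes by a small set of transporters. This account follows 9 such genes, Fth1, Ftl1, Trf, Tfrc, Slc11a2, Slc40a1, Cp, Heph and Hmox1, through the chemical conversion of mouse embryonic fibroblasts into retinal pigment epithelium (RPE), the pigmented cell layer behind the photoreceptors. They were chosen by gene symbol and known function, with earlier results of these data in view, from 55291 symbols in the mouse count table. All 9 were among the 20562 genes that passed the filter on low counts. Because of that choice their values are given as a description and no p-value is attached to them.

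The data are bulk RNA-seq of 14 mouse libraries, labelled C57BL/6J throughout. Embryonic fibroblasts (MEF, 3 libraries) are the starting cells. Cells at day 7 (D7, 3 libraries) and day 18 (D18, 3 libraries) are labelled as intermediates in M7 reprogramming medium, which holds N2, B27 without vitamin A, BSA, bFGF and the small molecules CHIR-99021, LDN193189, A 83-01, Hh-Ag1.5, RG108, BMS-345541 and CKI-7. Cells at day 32 (D32, 3 libraries) are labelled as induced RPE in M3 differentiation and maturation medium, which holds KSR, 2-mercaptoethanol, Y27632, nicotinamide, retinoic acid and activin A. Primary RPE (P-RPE, 2 libraries) is labelled as untreated. The tissue label is E13.5 mouse embryos for all 14 libraries, and the MEF libraries also carry the M7 medium label. These 2 entries were not used to form groups. Per the labels, cells that looked successfully induced were scraped for RNA at each time point, so the libraries are not a random sample of the dishes. D18 and D32 differ in both day and medium, which cannot be told apart. The labels do not say whether replicates were separate cultures or animals, so errors here measure the spread between libraries, which may be technical. For each gene that spread is pooled over the 5 groups, so an error is not the spread of the 2 groups compared. The groups spread unequally. The mismatch in counts between 2 libraries of a group (chi-square per gene) was 3.56 to 4.8 in MEF and 11.2 to 45 at D7. It was 68.1 to 104 at D18, 45.3 to 95.2 at D32 and 43.3 in P-RPE.

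Total counts were 32352405 to 41390196 per library. Levels are CPM (counts scaled to a common library size) on TMM-scaled library sizes, and levels of named genes are compared with each other only per kilobase of annotated exon. Ranks among all symbols are by counts, which also grow with gene length. The labelled cell types were checked against summed marker levels. The 11 RPE markers summed to 37265 and 41064 CPM in P-RPE, to 3148 to 6078 CPM at D32 and to 4.43 to 25.3 CPM in the other 9 libraries, and Rpe65, Lrat, Rgr, Tyr and Otx2 were at 0 in MEF. The 8 fibroblast markers summed to 11107 to 11533 CPM in MEF and still to 10599 to 16671 CPM at D32, against 1134 and 1363 CPM in P-RPE. D18 carried the most astrocyte marker RNA, with sums of 24191 to 35754 CPM over 7 genes. In 1 D18 library, replicate 3, the fibroblast sum was 3097 CPM, against 14420.3 and 12454 CPM in replicates 1 and 2. In bulk RNA, fewer cells of a type and less RNA per cell cannot be told apart.

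As background, ferritin is a shell of heavy chains (Fth1, which oxidise iron) and light chains (Ftl1, which help form the iron core). Transferrin (Trf) binds ferric iron in body fluids, the transferrin receptor (Tfrc) takes it into the cell, and Slc11a2 (DMT1) moves ferrous iron out of the endosome. Ferroportin (Slc40a1) exports iron, helped by the ferroxidases ceruloplasmin (Cp) and hephaestin (Heph), and heme oxygenase 1 (Hmox1) frees iron from heme. RPE handles iron at the blood-retina barrier and degrades heme-rich and iron-rich photoreceptor debris. When iron is scarce, the iron regulatory proteins Aco1 and Ireb2 bind hairpins called iron-responsive elements in mRNA. A hairpin in the 5′ UTR then blocks translation, and hairpins in the 3′ UTR of Tfrc protect the mRNA from decay. RNA counts therefore do not show ferritin or ferroportin protein.

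The hairpins were searched in GENCODE vM21 transcripts (GRCm38) as a C, 5 stem bases, the loop CAGTGN, and 5 bases that pair with the stem, with G-T pairs allowed, on the transcript strand. They are shown because the iron regulatory proteins are known to act on these mRNAs through them. The capitals mark the bulged C and the loop, and each line runs 5′ to 3′ in DNA letters.
Fth1 5′ UTR, chr19:9982733-9982760, plus strand: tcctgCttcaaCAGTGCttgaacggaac
Ftl1 5′ UTR, chr7:45459779-45459806, minus strand: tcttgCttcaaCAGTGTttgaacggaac
Slc40a1 5′ UTR, chr1:45925465-45925492, minus strand: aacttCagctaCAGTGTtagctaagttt
Tfrc 3′ UTR, chr16:32631220-32631247, plus strand: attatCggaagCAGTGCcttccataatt
Tfrc 3′ UTR, chr16:32631599-32631626, plus strand: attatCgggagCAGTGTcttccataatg
Tfrc 3′ UTR, chr16:32631664-32631691, plus strand: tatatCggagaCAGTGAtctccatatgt
Tfrc 3′ UTR, chr16:32631711-32631738, plus strand: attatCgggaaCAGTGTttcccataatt

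The ferritin hairpins matched at 26 of 28 bases and differed at C3T and C17T, counted from the 5′ end with the Fth1 base first. Tfrc held 4 hairpins, and Fth1, Ftl1 and Slc40a1 held 1 each. Over all genes, 31 of 20900 with an annotated 5′ UTR (0.148%) and 129 of 21028 with an annotated 3′ UTR (0.613%) held such a match. A match is a description of the sequence and was not tested for binding. The letters searched were not found in the UTRs of the other 5 members. The search allowed no break in the 5-base stem, so it would miss elements of another form. It does not show that these members, Slc11a2 among them, lack an iron-responsive element, or that Tfrc holds no more than 4.

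Fth1 (ENSMUSG00000024661, chr19:9980598-9985098) was lowest in MEF and highest at D18. Its levels were 786, 842 and 792 CPM in MEF and 2866, 3031 and 2808 CPM at D7. They were 8834, 7897 and 5382 CPM at D18, 2045, 2386 and 1879 CPM at D32, and 2816 and 2811 CPM in P-RPE. Every D7 library was above every MEF library, and every D18 library above every D7 library. D7 and P-RPE, neighbours in the order of levels, overlapped. By counts, Fth1 ranked 148 to 155 among all symbols in MEF and 3 to 7 at D18. On the log2 scale the change was 1.85 (SE 0.16) from MEF to D7 and 1.35 (SE 0.16) from D7 to D18, and it was -1.81 (SE 0.16) from D18 to D32. D32 was below P-RPE by a log2 change of -0.42 (SE 0.18). The lowest D18 value belonged to replicate 3, which stands apart in fibroblast markers, and without it the D7 to D18 change was 1.53.

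Ftl1 (ENSMUSG00000050708, chr7:45457944-45459884) ran the other way. Its levels were 1159, 1237 and 1197 CPM in MEF, 464, 446 and 432 CPM at D7, and 274, 354 and 289 CPM at D18. They were 590.5, 688 and 503 CPM at D32 and 664 and 703 CPM in P-RPE. MEF was highest and D18 lowest, and only D32 and P-RPE overlapped among neighbours in the order. Its log2 change was -1.42 (SE 0.13) from MEF to D7, -0.55 (SE 0.13) from D7 to D18 and 0.96 (SE 0.13) from D18 to D32. D32 against P-RPE gave -0.20 (SE 0.14) with overlapping libraries, and 0.02 when library totals alone set the scale. Ftl1 shares 109 exon bases with the same-strand miRNA gene Gm22133. It shares 355 exon bases with Gm10252 on the opposite strand, and whether counting used strand is not given in the sources used here. P-RPE differed from MEF in opposite directions for Fth1 and Ftl1, by log2 changes of 1.80 (SE 0.18) and -0.81 (SE 0.14).

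Per kilobase of exon, heavy chain RNA went from a minority to a large majority of ferritin RNA. The Fth1 to Ftl1 ratio was 0.262, 0.263 and 0.255 in MEF and 2.39, 2.63 and 2.51 at D7. It was 12.5, 8.62 and 7.2 at D18, 1.34, 1.34 and 1.44 at D32, and 1.64 and 1.55 in P-RPE. No 2 groups overlapped, and the order was D18, D7, P-RPE, D32, MEF. The ratio needs no scaling between libraries but depends on the lengths: with the longest transcript of each gene in place of all exons, the group means were 0.436 in MEF and 15.8 at D18, and the order of groups was as before. The 2 ferritin genes together held 0.180 to 0.187% of counts in MEF and 0.369 to 0.398% at D7. The share was 0.576 to 0.851% at D18, then 0.259 to 0.305% at D32, and 0.309 and 0.317% in P-RPE. The astrocyte marker sum was 16.4 to 18.7 CPM in MEF, 1050.2 to 1522 CPM at D7 and highest at D18, and it was 1946 to 2102 CPM at D32 and 316 and 503 CPM in P-RPE. Its part in the ferritin levels was not tested.

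**Figure D1:**
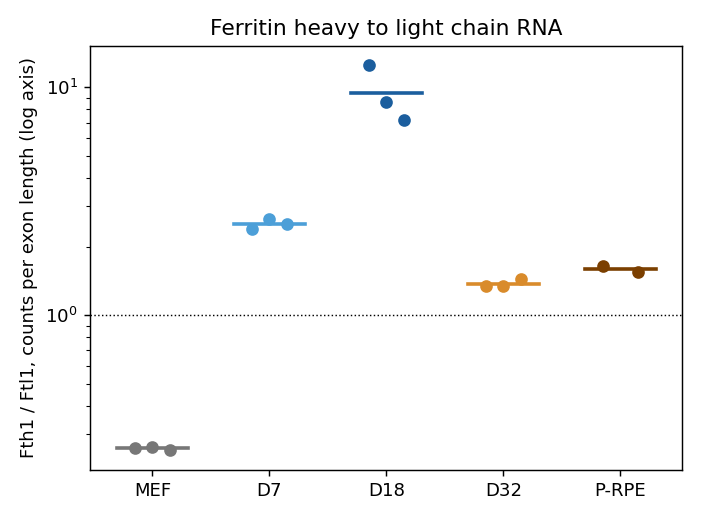
Ratio of Fth1 to Ftl1 counts per exon length in each library (points, log axis) with the group mean (line), and a dotted line at 1. The 3 MEF libraries sit between 0.255 and 0.263 and the 3 D18 libraries between 7.2 and 12.5.

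Trf (ENSMUSG00000032554, chr9:103204001-103230444) was higher in each later group and highest in primary RPE. Its levels were 6.49, 6.69 and 6.58 CPM in MEF, 116, 135 and 107 CPM at D7 and 944, 941 and 824 CPM at D18. They were 4253, 2884 and 2019 CPM at D32 and 23026 and 22458 CPM in P-RPE. No 2 groups overlapped. The log2 change was 4.18 (SE 0.23) from MEF to D7, 2.92 (SE 0.21) from D7 to D18 and 1.76 (SE 0.20) from D18 to D32. D32 remained below P-RPE by a log2 change of -2.90 (SE 0.22), a 7.45-fold difference. In the P-RPE libraries Trf was the fourth and second most counted symbol, with 2.05 and 2.02% of all counts. Trf shares 2108 exon bases with the same-strand gene Gm20425, which has no row in the table, so reads from the 2 cannot be told apart.

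Mean Trf at D32 was 13.4% of its P-RPE mean. The same percentage was taken for every listed marker with at least 10 CPM in P-RPE. It was 9.63 to 22% (median 13.8%) over 10 RPE markers. Over 5 red cell markers it was 8.9 to 12.6% (median 9.83%), over 9 macrophage markers 11.2 to 31.4% (median 19.8%), over 6 endothelial markers 12.7 to 93% (median 19%) and over 5 choroid plexus markers 10 to 26.6% (median 11.8%). The rod genes Gnat1 and Sag were at 1.7 and 1.92%. The percentage was 9.7 to 99.8% (median 19.5%) over 6 oligodendrocyte lineage markers and 9.05% for Ttr, the 1 hepatocyte marker kept. The lowest values were 21% among 6 astrocyte markers, 55.9% among 8 fibroblast markers and 84.4% among 4 dividing cell markers. The Trf value thus lay within the range of the RPE, macrophage, endothelial, choroid plexus and oligodendrocyte lineage markers. It was above the red cell markers, Ttr and the rod genes, and below the astrocyte, fibroblast and dividing cell markers.

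Within D32, Trf was highest in replicate 1 and lowest in replicate 3. All 10 of those RPE markers were highest in replicate 1, and 7 were lowest in replicate 2 and 3 in replicate 3. Across replicates 1, 2 and 3 the RPE sum was 6078, 3716 and 3148 CPM, the macrophage sum 274, 238 and 162 CPM, the endothelial sum 208, 196 and 156 CPM and the choroid plexus sum 4289.9, 3058 and 2436 CPM, all in the order of Trf. The red cell sum was 103, 124 and 204 CPM and the rod sum 5.96, 29.0 and 48.7 CPM, in the opposite order. The hepatocyte sum (2628, 2083 and 1433 CPM) and the dividing cell sum (436, 343 and 319.9 CPM) also had the order of Trf. The oligodendrocyte lineage sum (253, 209 and 259.9 CPM), fibroblast sum (10599, 16671 and 15156 CPM) and astrocyte sum (1961, 2102 and 1946 CPM) had neither order. These orders of 3 libraries were not tested. In P-RPE the red cell sum was 975 and 1780.4 CPM, and at D18 it was 0.112 to 0.454 CPM. The macrophage sum was 1348 and 1459 CPM in P-RPE, the endothelial sum 559.7 and 651 CPM and the rod sum 866 and 2444 CPM.

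Trf is also made by hepatocytes, oligodendrocytes and choroid plexus. The choroid plexus sum over 7 genes was 33232 and 29145 CPM in P-RPE, mostly Ptgds (25557 CPM on average), Enpp2 (3859 CPM) and Clic6 (1434 CPM), while Kl was at 0.191 CPM and Kcne2 at 4.90 CPM. The hepatocyte sum, nearly all of it Ttr, was 1433 to 2628 CPM at D32 and 21041 and 24068 CPM in P-RPE. In P-RPE, Fgb and Serpina1a were at 0, and Alb, Ahsg and Apoa2 averaged 0.411, 0.056 and 0.492 CPM. Oligodendrocyte lineage markers summed to 1059 to 2066 CPM at D18, 209 to 259.9 CPM at D32 and 505 and 1744 CPM in P-RPE. Whether such cells were present, and their part in the Trf level, was not tested.

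Tfrc (ENSMUSG00000022797, chr16:32608920-32632794) was highest in the fibroblasts. Its levels were 147, 153 and 148 CPM in MEF, 88.3, 65.2 and 86.5 CPM at D7 and 22.5, 15.5 and 10.3 CPM at D18. They were 53.3, 33.1 and 36.7 CPM at D32 and 70.1 and 53.0 CPM in P-RPE. MEF was above every other library and D18 below, while P-RPE overlapped both D7 and D32. On the log2 scale the change was -0.90 (SE 0.24) from MEF to D7, -2.31 (SE 0.25) from D7 to D18 and 1.35 (SE 0.24) from D18 to D32. D32 against P-RPE gave -0.58 (SE 0.26). The sum of 8 markers of dividing cells had the same extremes, from 1123 to 1176 CPM in MEF and 438 to 446 CPM at D7 to 93.2 to 101 CPM at D18. It was 319.9 to 436 CPM at D32 but 143 and 145 CPM in P-RPE, where Tfrc was not lower than at D32. The part of cell division in the Tfrc level was not tested.

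Slc11a2 (ENSMUSG00000023030, chr15:100387898-100425072) moved least among the 9 genes. Its levels were 62.3, 64.2 and 66.3 CPM in MEF, 105, 98.9 and 113 CPM at D7 and 71.4, 83.6 and 61.7 CPM at D18. They were 66.1, 75.0 and 82.2 CPM at D32 and 100.3 and 94.8 CPM in P-RPE. D7 and P-RPE were the high groups and overlapped each other, and MEF, D18 and D32 overlapped in turn. Its log2 change was 0.72 (SE 0.11) from MEF to D7 and -0.55 (SE 0.11) from D7 to D18. From D18 to D32 it was 0.04 (SE 0.11) with a sign that turned under 4 alternatives. D32 was below P-RPE by -0.39 (SE 0.13). It shares 402 exon bases with Gm5475 on the opposite strand.

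Slc40a1 (ENSMUSG00000025993, chr1:45908068-45926523) was a low-count gene in every group and was highest in primary RPE. Its levels were 2.92, 3.10 and 3.69 CPM in MEF, 1.49, 1.5 and 1.37 CPM at D7 and 3.48, 2.83 and 6.10 CPM at D18. They were 7.96, 7.62 and 7.26 CPM at D32 and 14.3 and 12.2 CPM in P-RPE. D7 was below all other groups, and among neighbours in the order only D18 and MEF overlapped. Counts behind these levels ran from 55 to 510. The log2 change was -1.15 (SE 0.26) from MEF to D7, 1.51 (SE 0.26) from D7 to D18 and 0.88 (SE 0.24) from D18 to D32. Without D18 replicate 3, the highest D18 library, these last values were 1.12 and 1.27. D32 was below P-RPE by -0.80 (SE 0.26), at 57.6% of its mean.

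The 2 ferroxidases that partner ferroportin followed different courses. Cp (ENSMUSG00000003617, chr3:19957054-20009145) was at 7.13, 6.58 and 8.96 CPM in MEF, 305, 299 and 298 CPM at D7 and 1051, 982 and 1319 CPM at D18. It was at 251, 212 and 319 CPM at D32 and 64.2 and 96.3 CPM in P-RPE. D18 was highest, D7 and D32 overlapped, P-RPE was lower, and MEF was lowest. On the log2 scale the change was 5.31 (SE 0.21) from MEF to D7, 1.89 (SE 0.18) from D7 to D18, -2.10 (SE 0.18) from D18 to D32 and 1.70 (SE 0.21) for D32 against P-RPE. Cp and the astrocyte marker sum were both highest at D18, and the part of astrocyte-like RNA in the Cp level was not tested. Cp shares 108 exon bases with Hps3 on the opposite strand.

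Heph (ENSMUSG00000031209, chrX:96455359-96574485) was low until D32. Its levels were 10.7, 6.53 and 9.90 CPM in MEF, 7.06, 8 and 5.84 CPM at D7 and 7.56, 5.76 and 3.93 CPM at D18, and these groups overlapped in turn. They were 52.5, 38.7 and 43.0 CPM at D32 and 111 and 105 CPM in P-RPE. Its log2 change was -0.37 (SE 0.22) from MEF to D7 and -0.28 (SE 0.23) from D7 to D18, both with overlapping libraries, then 2.96 (SE 0.23) from D18 to D32. D32 was below P-RPE by -1.27 (SE 0.23), at 41.4% of its mean. Per kilobase of exon, the Cp mean was 117 CPM and the Heph mean 0.751 CPM at D18, against 8.39 and 14.1 CPM in P-RPE. Cp was thus the ferroxidase with the higher RNA level at D18, and Heph in P-RPE.

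Hmox1 (ENSMUSG00000005413, chr8:75093621-75100589) was lowest in primary RPE and highest in the induced cells. Its levels were 187, 197 and 193 CPM in MEF, 137, 118 and 132 CPM at D7 and 102, 94.0 and 74.8 CPM at D18. They were 237, 375 and 261 CPM at D32 and 32 and 40.3 CPM in P-RPE. No 2 groups overlapped. The log2 change was -0.58 (SE 0.16) from MEF to D7, -0.51 (SE 0.16) from D7 to D18 and 1.69 (SE 0.16) from D18 to D32. D32 was above P-RPE by 3.01 (SE 0.20), a difference of 8.05-fold. The fibroblast sum, given above, was also higher at D32 than in P-RPE, and the macrophage and red cell sums were lower. The part of these cells in the Hmox1 level was not tested.

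**Figure D2:**
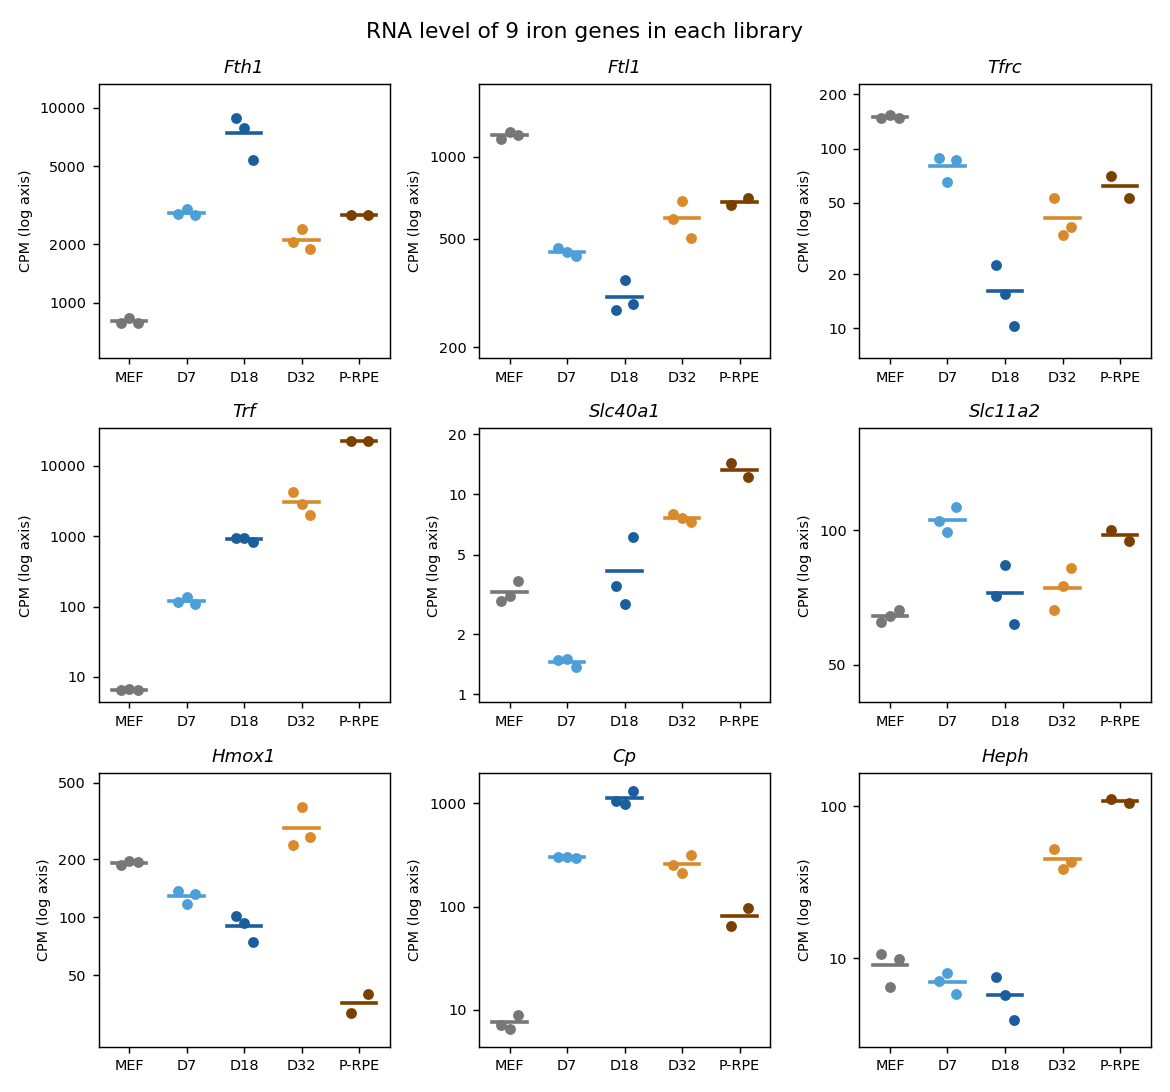
Level of each of the 9 genes in every library in CPM (points, log axis, a separate range for each gene) with the group mean (line), for MEF, D7, D18, D32 and P-RPE. Fth1 and Cp peak at D18, Ftl1 and Tfrc are lowest there, and Trf, Slc40a1 and Heph are highest in P-RPE.

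From MEF to D7, Fth1, Trf, Slc11a2 and Cp (4 of 9) were higher in every D7 library than in every MEF library, and Ftl1, Tfrc, Slc40a1 and Hmox1 (4 of 9) lower. Of all genes tested, 34.5% were higher and 33.3% lower in that sense. From D7 to D18, 4 were higher (background 31.7%) and 4 lower (31.3%). From D18 to D32, 6 were higher (30.8%) and 2, Fth1 and Cp, lower (27.9%). D32 was above P-RPE in 2 genes, Hmox1 and Cp (32.7%), and below it in 5, Fth1, Trf, Slc40a1, Slc11a2 and Heph (34.6%). P-RPE was above MEF in 6 genes (44.9%) and below in 3, Ftl1, Tfrc and Hmox1 (37.7%). As the members were chosen with these contrasts in view, nothing is read from their counts against the background. Each group serves in 2 of the 5 comparisons, so the comparisons are not independent.

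**Figure D3:**
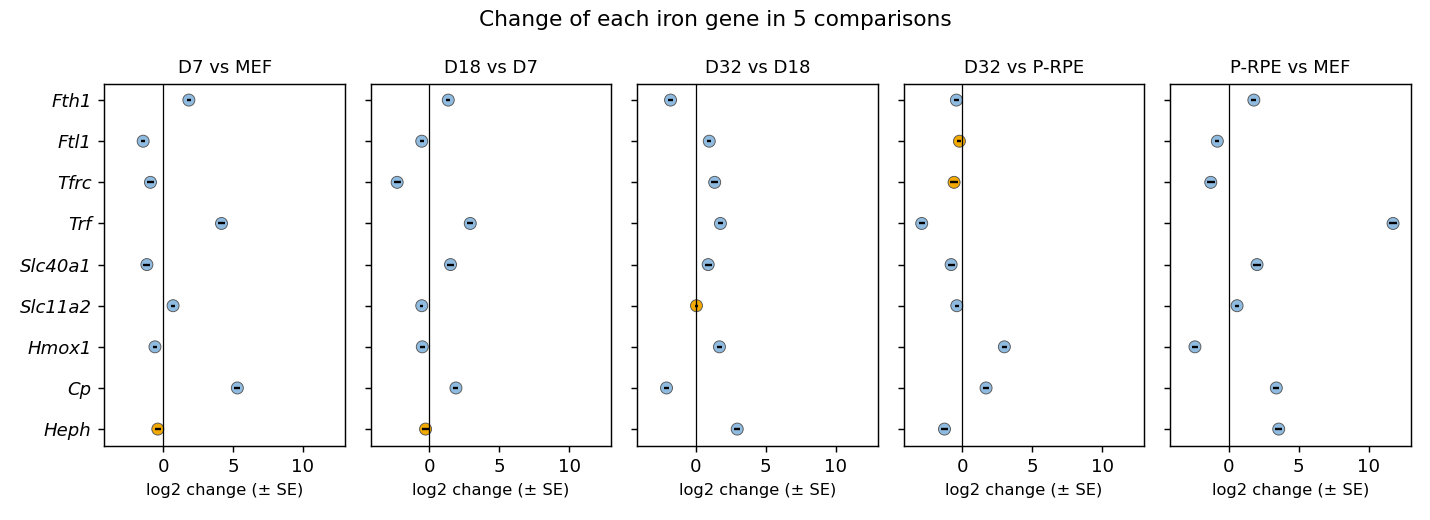
Log2 change (points) with its standard error (black bars, in places within the point) for each gene in the 5 comparisons, from edgeR's fit to all 14 libraries. Blue points mark genes whose libraries do not overlap between the groups and orange points those that do, and Trf in P-RPE against MEF lies farthest to the right at 11.75.

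**Figure D4:**
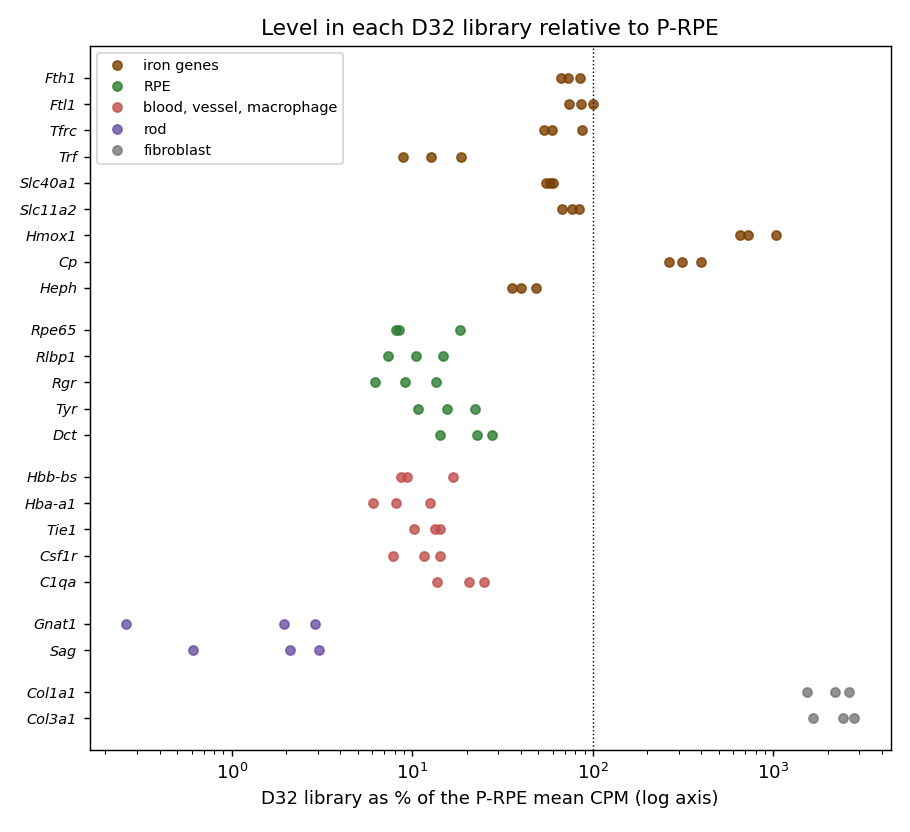
Level in each D32 library as a percentage of the mean P-RPE level (log axis) for the 9 iron genes and for markers of RPE, blood, vessel and macrophage, rod and fibroblast. By its mean (13.4%), Trf lies within the range of the RPE markers and of the vessel and macrophage markers. That mean is above those of the blood markers Hbb-bs (11.6%) and Hba-a1 (8.9%). Hmox1 (805%) and Cp (325%) lie to the right of the dotted line at 100%, and Fth1 is at 74.8%.

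Other genes of iron handling were tested gene by gene and counted over 5 lists holding 65 genes, none of them a member. The lists, too, were chosen with earlier results of these data known, so their counts beside all genes are a description. Genes named from them were picked for the largest changes, so their adjusted p-values are likewise a description and not independent support. Of the 65 genes, 62 passed the filter on low counts. Hamp and Hamp2, which encode hepcidin, and Ftmt, mitochondrial ferritin, did not. All p-values below are from the quasi-likelihood test of edgeR, adjusted by Benjamini-Hochberg over the 20562 genes, with a threshold of 0.05, and "rose" and "fell" are used only for genes past it.

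From MEF to D7, 17 of the 62 genes rose and 21 fell, against 28.5% and 26.5% of all genes. By list, 5 rose and 3 fell among 12 uptake and reduction genes, 5 and 3 among 11 regulators, 4 and 6 among 17 mitochondrial genes, and 3 and 5 among 17 heme genes. Steap4, a ferric and cupric reductase, rose from 0.154 ± 0.0861 to 472 ± 74.9 CPM (SD, n = 3 each; log2 change 11.56, SE 0.29, adjusted p = 8.54e-13). Its relative Steap1 fell from 20.1 to 8.12 CPM (log2 change -1.31, SE 0.20, adjusted p = 5.01e-05). Bach1, a heme-sensing repressor known to act on Hmox1 and the ferritin genes, rose by 0.68 on the log2 scale (SE 0.15, adjusted p = 0.00113), and Neo1, a receptor for hemojuvelin, fell (-0.89, adjusted p = 5.22e-06). None of the 5 tested storage partners rose and 4 fell, among them Glrx3, a glutaredoxin of iron delivery (-0.65, adjusted p = 2.59e-05). Of the mitochondrial genes, Slc25a28, mitoferrin 2, rose by 0.84 (adjusted p = 1.06e-05), and Glrx5, of iron-sulfur cluster assembly, fell (-1.44, adjusted p = 1.45e-05). Among the enzymes of heme synthesis, Ppox rose (1.07, adjusted p = 3.56e-06) and Cpox fell (-1.02, adjusted p = 5.76e-06). With library totals alone as the scale, 11 genes fell.

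From D7 to D18, 28 rose and 20 fell, against 29.2% and 27.4% of all genes. Of the 12 uptake and reduction genes 7 rose and 4 fell, with a median log2 change of 1.25 beside 0 over all genes. Tfr2, the second transferrin receptor and an iron sensor of liver and erythroid cells, had 2 counts in all D7 libraries and 2266 in all D18 libraries. The ratio of the 2 on scaled library sizes was 1292, with a 95% counting interval of 357 to 10672, and the mean at D18 was 21.0 ± 3.08 CPM (SD, n = 3; adjusted p = 8.91e-10). Hfe, which binds transferrin receptors, rose from 8.88 ± 1.38 to 218 ± 18.7 CPM (log2 change 4.62, SE 0.14, adjusted p = 9.73e-12). At D18, where Tfr2 and Hfe had risen, Tfrc had its lowest levels. Steap2 fell (-1.18, adjusted p = 1.96e-06). Hp, haptoglobin, which binds free hemoglobin, rose from 7.90 to 327 ± 213 CPM (log2 change 5.38, SE 0.56, adjusted p = 5.21e-06), with a wide spread at D18. The putative heme transporter gene Flvcr2 fell (-2.38, adjusted p = 1.18e-06). Ncoa4, the receptor that delivers ferritin to lysosomes, rose by 0.49 (adjusted p = 0.000346), while Glrx3 fell (-1.22, adjusted p = 4.57e-08) and Bach1 fell (-0.85, adjusted p = 0.000161). Iscu, the scaffold of iron-sulfur clusters, rose (1.41, adjusted p = 1.87e-07) and Slc25a37, mitoferrin 1, fell (-0.97, adjusted p = 5.05e-06).

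From D18 to D32, 22 rose and 23 fell, against 29.9% and 26.1% of all genes. Fits to these 2 groups alone gave 14 and 15. Ltf, lactoferrin, an iron-binding secreted protein, rose from 0.262 ± 0.147 to 63.1 ± 1.26 CPM (SD, n = 3 each; log2 change 7.91, SE 0.32, adjusted p = 5.4e-09). Flvcr2 rose from 2.30 to 55.5 CPM (4.60, adjusted p = 2.94e-09) and Flvcr1, a heme and choline transporter, fell from 200 ± 48.9 to 41.5 CPM (-2.27, adjusted p = 5.29e-08). Hfe fell (-2.56, adjusted p = 6.15e-10), Steap4 fell (-2.55, adjusted p = 1.23e-08) and Ncoa4 fell (-0.75, adjusted p = 6.31e-06). Ncoa4 and Fth1 were thus both highest at D18. Glrx3 rose (0.60, adjusted p = 5.31e-05) and Fdxr, ferredoxin reductase, fell (-1.05, adjusted p = 1.58e-05). Ireb2, one of the 2 iron regulatory proteins, rose by 0.48 (SE 0.17, adjusted p = 0.0231), with overlapping libraries. That call was lost without D18 replicate 1 or 2 or D32 replicate 1 or 3 (adjusted p = 0.064, 0.0655, 0.114 and 0.0904), with the 2 groups alone (0.0648) and with DESeq2 (0.0508).

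D32 was higher than P-RPE in 16 of the 62 genes and lower in 27, beside 27.1% and 26.8% of all genes. Of the 12 uptake and reduction genes 9 were higher at D32 and none was lower by the test, with a median log2 difference of 1.80 beside 0.02 over all genes. They were Ltf, Steap1, Steap2, Steap3, Steap4, Cybrd1, Tfr2, Slc39a8 and Slc39a14. Ltf was at 0.108 CPM in P-RPE (log2 difference 9.13, SE 0.42, adjusted p = 2.5e-08). Of the 17 mitochondrial genes 12 were lower at D32 and 2 higher, with a median of -0.45. Slc25a28 was the largest of these differences (-1.26, adjusted p = 5.19e-07), and the chaperone gene Hspa9 was higher (0.62, adjusted p = 0.000374). Bmp6, the ligand that drives hepcidin in liver, was at 26.1 ± 4.22 CPM at D32 and 236 ± 15.7 CPM in P-RPE (-3.18, adjusted p = 9.04e-08). Flvcr2 was lower at D32 (-3.01, adjusted p = 1.03e-07), as was Pcbp2, an iron chaperone (-0.56, adjusted p = 0.000366). Hp was higher (5.42, adjusted p = 4.04e-05), as was Glrx3 (1.53, adjusted p = 3.44e-08). Neo1 was higher by 0.34 (adjusted p = 0.0272), a call lost without D32 replicate 1 (adjusted p = 0.0581) or either P-RPE library (0.114 and 0.103), with RLE size factors (0.0723), with DESeq2 (0.055) and with the 2 groups alone (0.053). The count of 27 was 17 without either P-RPE library and 14 with library totals alone.

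P-RPE against MEF gave 33 genes that rose and 15 that fell, against 39.3% and 31.4% of all genes. Of the 17 heme genes 11 rose and 1, Cpox, fell (-2.22, adjusted p = 5.33e-09), with a median log2 change of 0.84 beside 0.18 over all genes. The largest rise among them was Alas2, the red cell form of the first heme enzyme (0.369 to 42.1 ± 19.1 CPM, log2 change 6.83, SE 0.55, adjusted p = 5.13e-08). Alas2 was also among the red cell markers, which were higher in P-RPE. Bmp6 rose (4.61, adjusted p = 8.84e-10), Steap4 rose (7.50, adjusted p = 1.24e-11) and Isca1, of iron-sulfur assembly, rose (1.99, adjusted p = 4.34e-09). Steap1 fell (-5.27, adjusted p = 8.5e-10), Hspa9 fell (-1.88, adjusted p = 3.12e-09) and Glrx3 fell (-2.79, adjusted p = 2.92e-11). Bach1 fell by 0.51 on the log2 scale (adjusted p = 0.0135), a call lost without P-RPE replicate 1 (adjusted p = 0.0716).

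**Figure D5:**
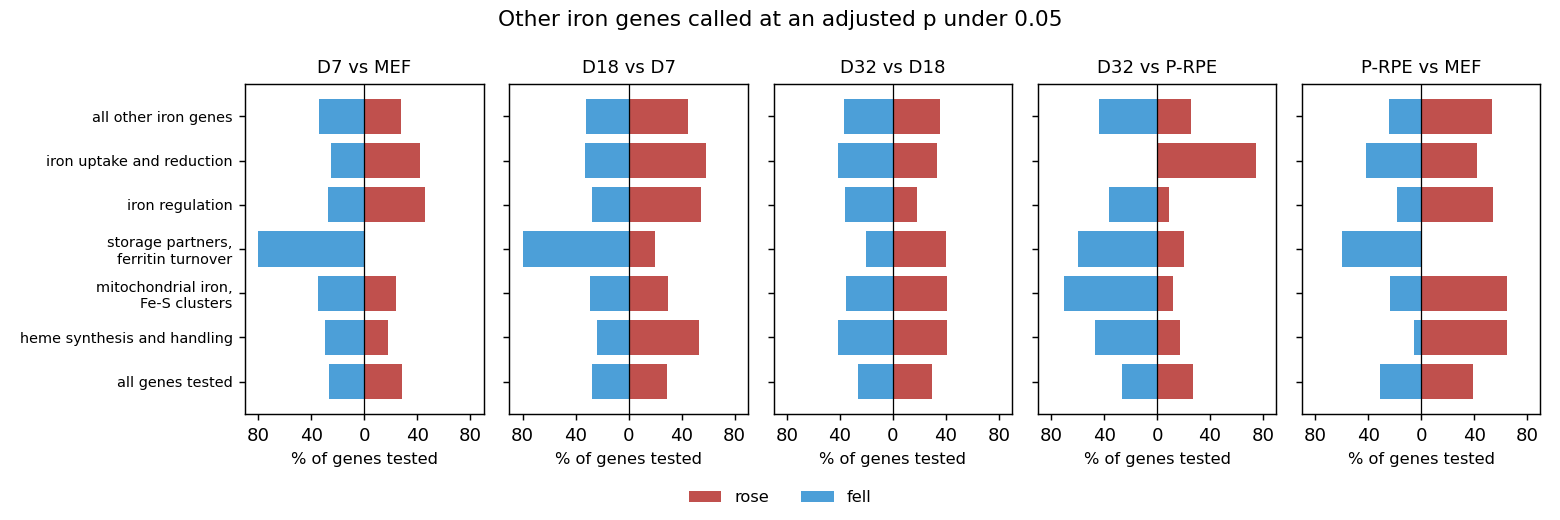
Share of the tested genes in each of 5 iron lists, in the lists together and over all genes, that rose (right) or fell (left) at an adjusted p under 0.05 in the 5 comparisons. In D32 against P-RPE, 75% of the uptake and reduction genes were higher and 70.6% of the mitochondrial genes lower.

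Genes whose log2 CPM followed each member most closely over the 14 libraries were listed as a description, out of 12188 candidates. The points are libraries of 5 groups, so the groups set most of each correlation. For Fth1 these were Plxdc1, Pfkm and Mfsd13a (Pearson r = 0.98 each), and for Ftl1 they were Loxl4, Plpp2 and Acot7 (0.99, 0.98 and 0.98). Tfrc was closest to Pcdh18, Vdac2 and Tnfrsf11a (0.98, 0.97 and 0.96), and Trf to Cpxm2, Myrip and Atp2b2 (0.99 each). Slc40a1 was closest to Wipi1, Col4a4 and Cabcoco1 (0.98, 0.97 and 0.97), and Heph to Tc2n, Cd5l and Hnf4a (0.99, 0.99 and 0.98). Cp was closest to Mlc1, Slc1a2 and Gdpd2 (0.995, 0.993 and 0.991), of which Slc1a2 was in the astrocyte marker list. Hmox1 was closest to Specc1, Aff2 and Ext1 (0.98, 0.97 and 0.97). Slc11a2 had the weakest match, with Col18a1 at 0.95 and Egflam at 0.92. Among the members themselves, Fth1 and Cp gave r = 0.91, Ftl1 and Cp -0.97, and Slc40a1 and Heph 0.82.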

How the data were processed

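The deposited table holds the authors' raw read counts per gene symbol. Per the submitters' processing notes, STAR 2.7.11a, featureCounts, Subread, edgeR 4.0.16 and limma 3.58.1 were used with builds mm10 and GRCm38. The 10 human columns were not analysed here. Counts for 14 libraries were fitted with edgeR 4.0.16 (R 4.3.3) by quasi-likelihood, with TMM scaling, 5 group means and filterByExpr, and p-values were adjusted by Benjamini-Hochberg. The code was tested on simulated data. The 9 members, the 65 other iron genes and the marker lists were chosen with earlier results of these data known. Named other genes are, per comparison and list, the called gene with the largest change each way and at least 10 CPM in the higher group. For each member, the 3 genes with the highest Pearson r (log2 CPM, prior count 2, at least 10 CPM in some group) are also named. A few items that these rules would name are not reported here. Coordinates and exon lengths are from GENCODE vM21 (GRCm38), in which 53292 of 55291 symbols matched. List medians were the same with genes at 0 in a group set at 3 counts. Genes with near copies or overlapping exons are named where this could matter: ferritin processed copies held few counts, and adding them moved the levels by less than 1 SD. That check covers only reads assigned to the copies. It cannot show reads that matched several places and may have been counted in no row. The alternatives were DESeq2 1.42.0, limma-voom 3.58.1, other scalings and filters, a replicate block, the 2 groups alone, leaving out each library, and, added after seeing the data, fits without the D32 or P-RPE libraries.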

Additional observations from a re-analysis of the deposited data

How the results depend on the processing

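Counting error is small at these depths, except for Slc40a1 and genes under a few CPM. The change of Slc11a2 from D18 to D32 reversed with RLE size factors (-0.026), with DESeq2 (-0.026), without D18 replicate 3 (-0.06) and without D32 replicate 3 (-0.032), and that of Ftl1 in D32 against P-RPE reversed with library totals alone (0.02). Leaving out each other library kept the sign of the Slc11a2 change, up to 0.133 without D18 replicate 2. No other member change turned its sign. Library totals alone moved the median of all genes by 0.32, -0.19 and 0.23 (log2; D7 against MEF, D18 against D7, D32 against P-RPE), the share of calls that rose to 69.7%, 40.7% and 62.1% (51.8%, 51.6% and 50.2% with TMM), and the other iron genes that fell to 11 of 62 (from 21) at D7 and 14 (from 27) in D32 against P-RPE. Fits to the 2 groups alone gave 14 that rose and 15 that fell from D18 to D32, and 16 that fell in D32 against P-RPE. Leaving out each library gave 17 to 29 that fell in D32 against P-RPE. The cause was not tested. Among the other iron genes named, Ireb2 (D32 against D18), Neo1 (D32 against P-RPE) and Bach1 (P-RPE against MEF) lost their calls under the alternatives given with them. DESeq2, limma-voom, RLE size factors, both filters and the fits without the D32 or P-RPE libraries kept every count of other iron genes that rose or fell within 1.5 times, as did a replicate block (D32 against P-RPE 17 rose and 26 fell, P-RPE against MEF 31 and 15). Samples with the same number did not deviate together (r from -0.097 to 0.095 over 26 pairs), so the numbers were not taken as pairs.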
